A study of Mus musculus with 2 samples.

Results

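Ddx6 and 9 genes of messenger RNA decapping and deadenylation were followed in embryonic mouse ureters (stage E14.5) on 2 dye-swapped 2-colour arrays. The members were the non-control probes whose gene name was Ddx6, Lsm14a, Lsm14b, Edc3, Edc4, Dcp1a, Dcp2, Xrn1, Pan3 or Cnot1, which gave 10 genes and 11 probes among 39429 probes of 31870 gene names. Ddx6 was chosen by its measured ratio, the largest positive one of all genes, so its own values are a description with no test, and the other 9 genes were taken as its known partners. The Gata2cKO embryos carried 1 Tbx18 allele that drives Cre recombinase in the ureteric mesenchyme, and both copies of a loxP-flanked Gata2, and were compared with embryos with unaltered Tbx18, no Cre and 1 floxed Gata2 allele beside an allele that the labels leave unstated. All embryos had the NMRI background. Array 1 held female RNA with Gata2cKO in Alexa Fluor 647 and control in 555, and array 2 held male RNA with Gata2cKO in 555 and control in 647, so the sexes and the dye orientations cannot be told apart. Nothing in the labels gives the number of embryos behind an RNA, and p-values measure only the spread between these 2 arrays and a prior drawn from all genes. The label could not be checked with the targeted gene, since Gata2 had log2 ratios of 0.33 and 0.54 (limma adjusted p = 0.409) at a probe whose place relative to the deleted part is not given, so Gata2cKO here means the RNA labelled so. Tbx18, the driver of Cre, was at 0.65 and 0.15 (limma adjusted p = 0.660), and Cre and its Tbx18 allele cannot be told apart from the loss of Gata2.

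Processing bodies are granules in the cytoplasm that hold repressed messenger RNAs and the enzymes that take off their caps. The scaffold Cnot1 of the CCR4-NOT deadenylase binds Ddx6, a DEAD-box RNA helicase that represses translation and promotes decapping. Ddx6 also binds Lsm14 and Edc3 proteins, Dcp2 removes the cap, and Xrn1 then degrades the body of the message from its 5′ end.

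The finding turns on single 60-base probes, and the last 30 bases of the Ddx6 probe and of both Lsm14b probes are shown because these probes gave the 2 largest ratios among the members and the contrast within Lsm14b. Capitals mark the stop triplets TAA, TAG and TGA that lie wholly in the stretch. Sequences are those of the array design, read 5′ to 3′ from base 31 to base 60 of the probe.
Ddx6: ccagtatacTAGgtcaggaggcatcTAGgg
Lsm14b, dimmer probe: ggcaaaggctcaatcctcactttgTAActt
Lsm14b, brighter probe: tcttctctaTAAgcatgcatcctcTGActg
The file places the Ddx6 probe on the plus strand of chr9:44446368-44446427 (mm9), the dimmer Lsm14b probe on chr2:179769248-179769307 and the brighter one on chr2:179769865-179769924, with 557 bases between these. All 3 reading frames of the Ddx6 probe and of the brighter Lsm14b probe held a stop triplet, and 2 of 3 did in the dimmer Lsm14b probe. No other probe of the array (0 of 39428) shared a run of 16 bases with any of them on either strand. Exons and untranslated regions were not assigned, since no annotation of mm9 was used.

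Ddx6 was 4.48-fold higher in Gata2cKO ureters in the scanner files and slightly lower in the authors' deposited table, while the means of its 9 partners, each by its brightest probe, lay between -0.10 and 0.24 on the log2 scale in the scanner files. A second, dimmer Lsm14b probe lay outside that range, at 1.05. On array 1 the loess-normalized signal of Ddx6 was 9917 in Gata2cKO and 2179.98 in control. On array 2 it was 6798 in Gata2cKO and 1543 in control. Gata2cKO and control were paired within an array, and on each array the Gata2cKO signal of Ddx6 lay far above the control signal. The log2 ratios of Gata2cKO over control were 2.19 on array 1 and 2.14 on array 2, with a mean of 2.16 ± 0.0328 (SD, n = 2), which is rank 1 of 20506 genes.

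The unprocessed spot signals belong to the values that chose Ddx6 and are given as a description. The mean pixel signal was 13127 for Gata2cKO in the 647 channel and 1621 for control in the 555 channel on array 1. On array 2 it was 5099 for Gata2cKO in the 555 channel and 2049 for control in the 647 channel. The probe was printed at 1 spot, which had 63 pixels on array 1 and 59 on array 2, and the spread of its pixels (coefficient of variation 11.1% to 17.1%) was close to the array medians of 14.1% to 15.7%. Probes printed at several spots had a median SD of 0.0450 and 0.0457 between spots in log2 ratio, with a largest SD of 0.130 over 303 probes. Of the 14 spots around that of Ddx6, 8 held probes detected on both arrays, with log2 ratios of -0.16 to 0.15 on array 1 and -0.10 to 0.02 on array 2, and none (0 of 8) reached 1.5-fold on both arrays.

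The authors' deposited table gave the same Ddx6 probe log2 ratios of -0.31 for array 1 and -0.10 for array 2, with the opposite sign to the scanner files in both columns. This table holds a signed fold change by its entries, with no value between -1 and 1 and a median of 1 in both columns. Its making and centring are not described in those sources that were used, and its direction was read from its correlation with the scanner ratios, which was 0.443 for array 1 and 0.376 for array 2 over all probes. The scanner software's own processed ratios for Ddx6 were 2.21 and 2.23 on the arrays. They come from the same spots and scans that chose Ddx6, so they are no separate source beside the deposited table.

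**Figure D1:**
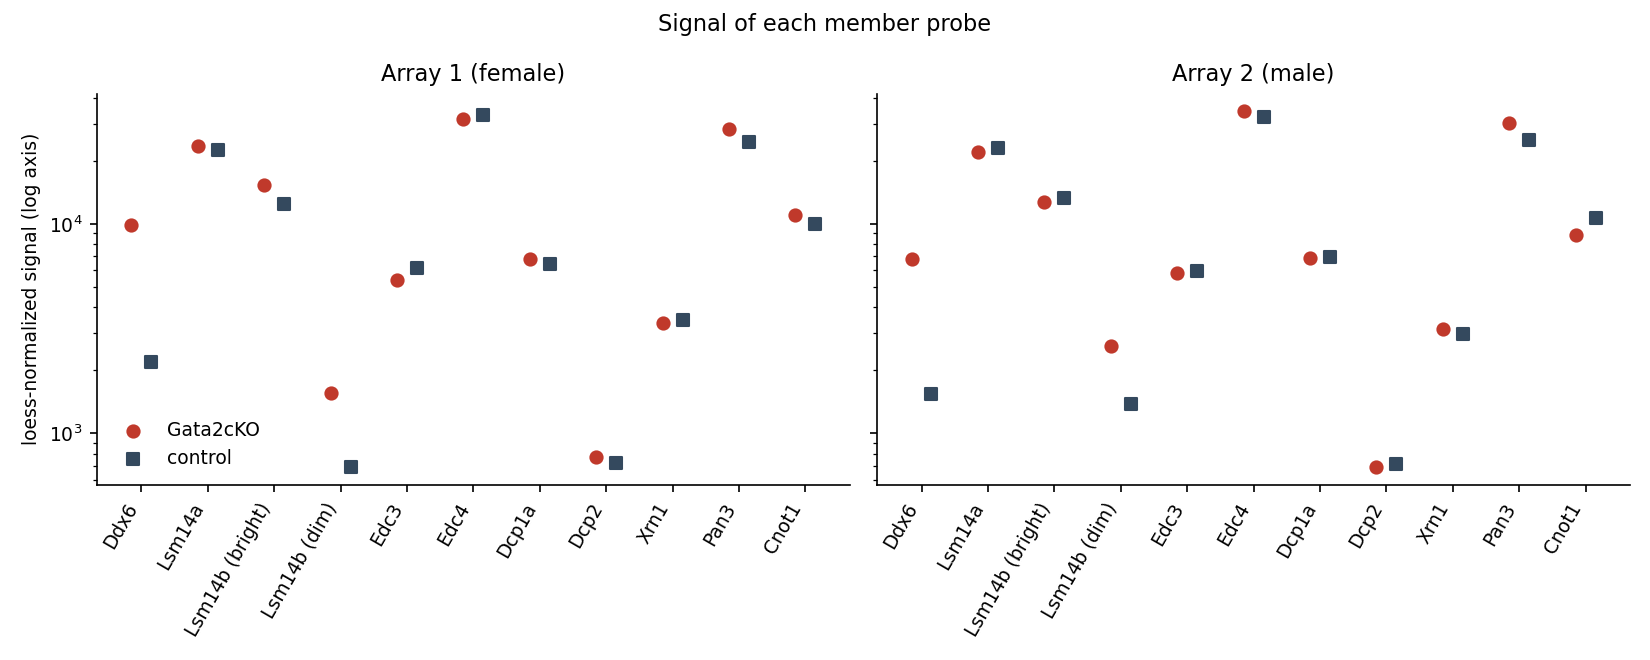
Loess-normalized signal of each of the 11 member probes (log axis) for Gata2cKO (circles) and control (squares), with array 1 in the left panel and array 2 in the right one. Ddx6 and the dimmer Lsm14b probe show the Gata2cKO signal well apart from the control signal on both arrays (9917 and 2179.98 for Ddx6 on array 1), while the other 9 pairs lie close together.

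Lsm14a and Lsm14b encode Sm-like proteins that bind Ddx6 and keep messages from being translated. Lsm14a (chr7:35130532-35130591, minus strand) had signals of 23647 in Gata2cKO and 22513 in control on array 1, and 22078 in Gata2cKO and 22999 in control on array 2. The sign of Lsm14a differed between the arrays (log2 ratios 0.07 and -0.06, mean 0.01 ± 0.0918, SD, n = 2, limma adjusted p = 0.997). The authors' deposited table gave Lsm14a -0.08 and 0.07.

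The probes of Lsm14b disagreed. The brighter probe, which stands for the gene in the test, had signals of 15279 in Gata2cKO and 12411 in control on array 1, and 12674 in Gata2cKO and 13249.8 in control on array 2. Its log2 ratios were 0.30 and -0.06, with a mean of 0.12 ± 0.257 (SD, n = 2; limma adjusted p = 0.933). The array values had opposite signs.

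The dimmer Lsm14b probe was higher in Gata2cKO on both arrays by size, but did not pass the test over all probes. Its signals were 1559 in Gata2cKO and 689.5 in control on array 1, and 2611 in Gata2cKO and 1382 in control on array 2. On each array the Gata2cKO signal was above the control signal of that array. The log2 ratios of 1.18 and 0.92 had a mean of 1.05 ± 0.183 (SD, n = 2), which is 2.07-fold (limma adjusted p = 0.0740 over 25657 probes, of which 15 or 0.0585% passed). Of those probes 73 (0.285%) were at least 1.5-fold higher on both arrays, and the dimmer Lsm14b probe was 1 of them. Its limma adjusted p was 0.000381 with a trended and robust variance, 0.0287 with signals processed by the scanner software and 0.0434 with no filter on dim probes. With median centring it was 0.9999. Counted over genes and not over probes, 376, 165, 54 and 0 passed in these settings, in that order, against 18 in the main one.

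As with Ddx6, the authors' deposited table did not show this difference, giving the dimmer Lsm14b probe -0.11 and 0.30. Of the 12 spots around it 7 were detected, with ratios of -0.72 to 0.11 on array 1 and -0.75 to 0.29 on array 2, and 1 of the 7 was at least 1.5-fold on both arrays, lower in Gata2cKO. Averaging both probes gave Lsm14b a log2 ratio of 0.58 (limma adjusted p = 0.227). Among 4321 genes with at least 2 probes tested, 19 had any probe at least 1.5-fold higher on both arrays. All probes were so in 6 genes, and in 8 genes some probe was so but the brightest was not.

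Edc3 and Edc4, enhancers of decapping that serve as scaffolds of the complex, gave small ratios of mixed sign. Edc3 (chr9:57597241-57597300, plus strand) had signals of 5410.1 in Gata2cKO and 6146 in control on array 1, and 5844.5 in Gata2cKO and 5931 in control on array 2. It was below control on both arrays, as were 26.2% of all genes. Its log2 ratios were -0.18 and -0.02 (mean -0.10 ± 0.115, SD, n = 2, limma adjusted p = 0.930). In the authors' deposited table Edc3 was at -0.03 and 0.09, a mean of the other sign. Edc4 (chr8:108416994-108417053, plus strand) had signals of 31665 in Gata2cKO and 32987 in control on array 1, and 34479 in Gata2cKO and 32467 in control on array 2. The sign of Edc4 differed between the arrays (log2 ratios -0.06 and 0.09, mean 0.01 ± 0.103, SD, n = 2, limma adjusted p = 0.995).

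The decapping enzyme itself did not pass. Dcp1a (chr14:31339843-31339902, plus strand), the activating subunit, had signals of 6807 in Gata2cKO and 6402 in control on array 1, and 6857 in Gata2cKO and 6927 in control on array 2. Dcp2, the catalytic subunit and the dimmest member, had signals of 767.4 in Gata2cKO and 724 in control on array 1, and 691 in Gata2cKO and 715.4 in control on array 2. In both genes the array 1 value was positive and the array 2 value negative, with mean log2 ratios of 0.04 ± 0.0730 for Dcp1a and 0.02 ± 0.0947 for Dcp2 (SD, n = 2; limma adjusted p = 0.990 and 0.994). The authors' deposited table gave Dcp1a 0.29 and -0.02, and Dcp2 0.09 and -0.17.

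Xrn1 (chr9:95946013-95946072, plus strand), the exonuclease that follows decapping, had signals of 3372 in Gata2cKO and 3492 in control on array 1, and 3158 in Gata2cKO and 2969 in control on array 2. Its sign also turned between the arrays (log2 ratios -0.05 and 0.09, mean 0.02 ± 0.0986, SD, n = 2; limma adjusted p = 0.994). The authors' deposited table gave Xrn1 0.02 and 0.32.

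Of the deadenylase scaffolds, Pan3 was the 1 partner above control on both arrays and in both columns of the authors' deposited table. Pan3 (chr5:148359992-148360051, plus strand), the adaptor that brings the Pan2 nuclease to poly(A) tails, had signals of 28416 in Gata2cKO and 24575 in control on array 1, and 30429.5 in Gata2cKO and 25138 in control on array 2. Its log2 ratios were 0.21 and 0.28, with a mean of 0.24 ± 0.0467, or 1.18-fold (SD, n = 2, limma adjusted p = 0.718). Of all genes 27.0% were higher on both arrays. The deposited values were 0.23 and 0.21. Cnot1 (chr8:98244062-98244121, minus strand) had signals of 11068 in Gata2cKO and 10029 in control on array 1, and 8834 in Gata2cKO and 10675.5 in control on array 2. It had the widest spread of the partners, with log2 ratios of 0.14 and -0.27 (mean -0.07 ± 0.294, SD, n = 2; limma adjusted p = 0.978), and the authors' deposited table gave Cnot1 0.55 and -0.54, the same order of signs.

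**Figure D2:**
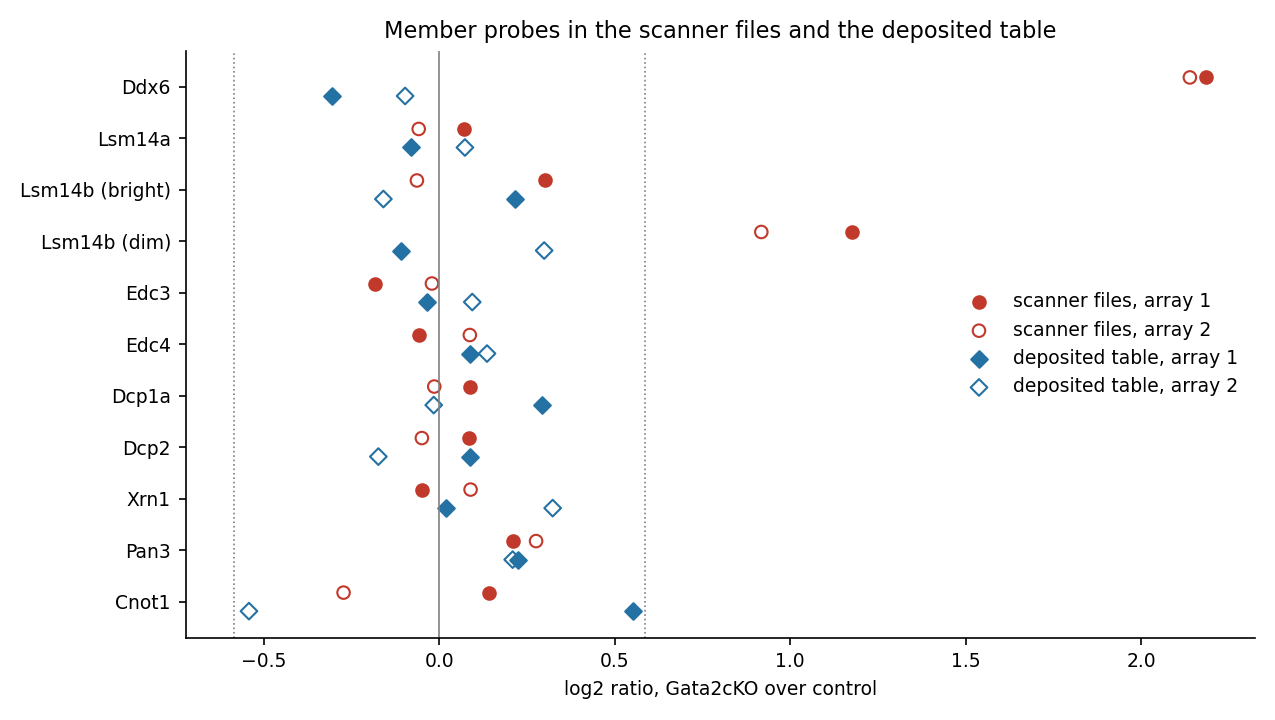
Log2 ratio of Gata2cKO over control for each member probe on array 1 (filled) and array 2 (open), from the scanner files (circles) and the authors' deposited table (diamonds), with dotted lines at 1.5-fold. Ddx6 (2.19 and 2.14) and the dimmer Lsm14b probe (1.18 and 0.92) lie beyond 1.5-fold in the scanner files and inside it in the deposited table.

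None of the partners passed an adjusted p of 0.05 (0 of 9), where 18 of 20506 genes (0.0878%) did. At an unadjusted p under 0.05 by limma were 0 of 9 partners, beside 1470 of the 20506 genes. At least 1.5-fold higher on both arrays were 0 of 9 partners, against 56 of all genes (0.273%), so the count of 0 lies near the background share. The median log2 ratio of the partners was 0.0170, with 0.0839 on array 1 and -0.0213 on array 2, and that of all genes was 0.00284. Their median absolute ratio was 0.0370, against 0.0891 over all genes. The 95% intervals of limma for the partners ran from -0.40 (the lower bound of Cnot1) to 0.51 (the upper bound of Pan3), so for each brightest probe they lay within 1.5-fold in either direction.

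The ratios of most partners turned sign between the dye orientations. Of the 9 partners 7 had opposite signs on the arrays, a share that was 46.8% over all genes, and 5 gave more loess-normalized signal in 647 than in 555 on both arrays, as did 23.0% of all genes. Before normalization all 9 did, but the median signal of the arrays was itself higher in 647 (754 on each) than in 555 (433 and 428). The share of all genes was not counted, so this count is not read as a trait of the partners. Lsm14a, Edc4 and Pan3 lay among the brightest genes (5127 of 20506), in which the arrays correlated at r = -0.572. Outside that group r was 0.389 across 15379 genes, and over all 20506 genes it was 0.0643. Genes are not independent replicates. Ddx6, at brightness percentile 51.9, lay outside the brightest group.

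**Figure D3:**
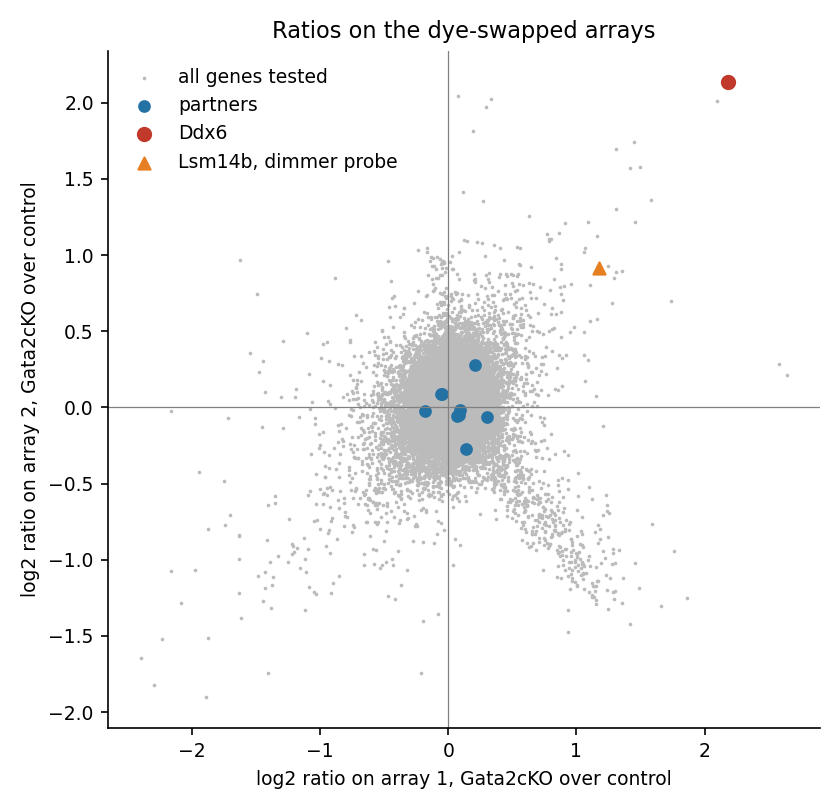
Log2 ratio of Gata2cKO over control on array 1 (x) and array 2 (y) for all genes tested (grey), the 9 partners (blue), Ddx6 (red) and the dimmer Lsm14b probe (orange triangle). Ddx6 lies farthest out where both ratios are positive (2.19 and 2.14), and the partners lie within 0.30 of 0 on both axes.

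Among the genes with the largest positive ratios, Ddx6 and Cntfr were the 2 that the authors' deposited table did not show as higher. At least 2-fold higher on both arrays were 13 of 20506 genes (0.0634%), and 11 of these 13 were at least 1.5-fold higher in both deposited columns. Cntfr, the receptor gene for ciliary neurotrophic factor, had 1.49 and 1.58 in the scanner files and -0.26 and 0.01 in the deposited table. Ddx6 was the 1 gene of the 13 with the opposite sign in both columns. Of 146 genes at least 1.5-fold on both arrays in either direction, 78 were so with the same sign in both deposited columns, and 124 had the same sign in both.

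The gene whose pair of ratios lay nearest to that of Ddx6 was Sostdc1, whose secreted product blocks BMP and Wnt signals and which had the next largest ratio (2.10 and 2.01, Euclidean distance 0.153 over the 2 arrays). The serotonin receptor gene Htr2b (1.45 and 1.74, distance 0.833), Cntfr (0.889), Lrriq1 (0.951) and the vasopressin receptor gene Avpr1a (0.981) followed. The gap from Sostdc1 to Htr2b was several times that from Ddx6 to Sostdc1. Each gene stands here by its brightest probe, and Sostdc1, Cntfr and Lrriq1 had 1 other probe each, whose ratios are not given. In the authors' deposited table Sostdc1 stood at 2.78 and 3.27 and Htr2b at 1.75 and 2.48, against -0.31 and -0.10 for Ddx6.

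**Figure D4:**
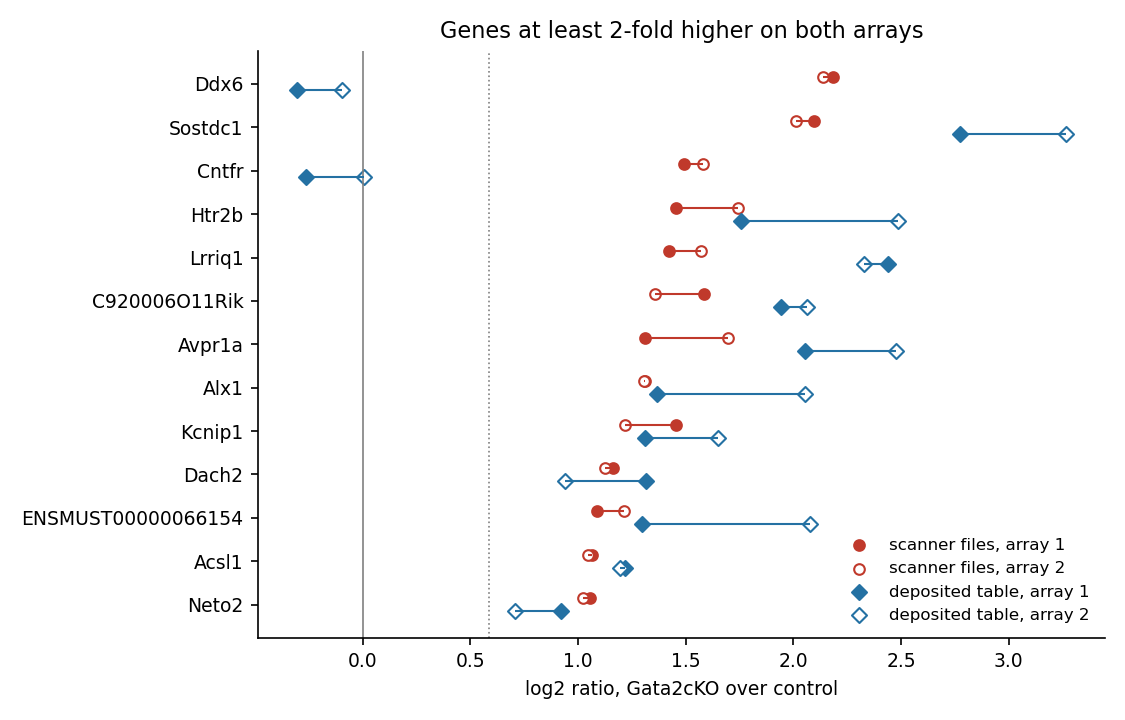
Log2 ratios of Gata2cKO over control for the 13 genes at least 2-fold higher on both arrays, from the scanner files (circles) and the authors' deposited table (diamonds), with array 1 filled and array 2 open. Diamonds lie beyond the dotted line at 1.5-fold for 11 genes and at or below 0.01 for Ddx6 and Cntfr.

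The genes directly beside Ddx6 on chromosome 9, Cxcr5 and Treh, were not among the genes tested. By gene order in assembly GRCm38.p6, the tested genes among the 4 on each side were Upk2 (0.21), Bcl9l (-0.26), Phldb1 (-0.20), Arcn1 (-0.03) and Ift46 (0.01), with 0 of 5 passing the limma test. Trappc4, a nearby gene outside these 8, was at -0.17. Upk2, a urothelial plaque gene, was at 0.56 on array 1 and -0.14 on array 2. Over the 1083 genes tested on chromosome 9 the median was 0.00815, and 5 were at least 1.5-fold higher on both arrays (0.462%, against 0.273% of all genes). Ddx6, which was chosen by its ratio, is itself among these 5, so the share is not read as a trait of the chromosome. Directly beside Lsm14b, Taf4, a subunit gene of the general transcription factor TFIID, was at 0.34 and -0.02 on the arrays (mean 0.16), and the proteasome subunit gene Psma7 at -0.32 and 0.30 (mean -0.01).

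Further genes of RNA decay and silencing, and the DEAD-box and eIF4A helicases whatever their role, were tested in the same fit. None of these 125 genes, counted by symbol and outside the members, passed (0 of 125, with 2 at an unadjusted p under 0.05). Of all 20506 genes 1470 were at an unadjusted p under 0.05. The median log2 ratio was 0.0259, and 33 were higher and 27 lower on both arrays, beside 27.0% higher and 26.2% lower of all genes. Means ran from -0.24 for the helicase gene Ddx41 to 0.34 for Btg2, which encodes an antiproliferative protein that recruits deadenylases. With the same sign on both arrays 0 of the 125 were at least 1.5-fold, as were 146 of all genes (0.712%), so this count lies near the background share. Exosc2, an exosome subunit gene named after its values were seen, was that large with opposite signs (1.19 on array 1 and -1.02 on array 2).

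Of 17 other genes of decapping and decay from the 5′ end, 2 were above and 4 below control on both arrays, and the median was -0.0160. The scavenger decapping enzyme gene Dcps had -0.21 and -0.22 on the arrays (mean -0.21; limma adjusted p = 0.759), with -0.30 and 0.27 in the authors' deposited table. Eif4enif1, whose product binds both the cap-binding protein and Ddx6, had 0.39 and 0.07 (mean 0.23; limma adjusted p = 0.787). Of 19 deadenylase genes and their recruiters, 5 were above and 3 below control on both arrays, and the median was 0.0263. Pan2, the nuclease that Pan3 carries, had 0.12 and 0.15 (mean 0.14; limma adjusted p = 0.864), and Btg2 had 0.60 and 0.08 (limma adjusted p = 0.729).

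Of 27 genes of miRNA silencing and translational repression, 11 were above and 5 below control on both arrays, and the median was 0.0542. The Argonaute gene Ago4 had 0.27 and 0.32 (mean 0.30; limma adjusted p = 0.630) and was positive in both deposited columns, at 0.42 and 0.52. Zfp36l1, which encodes a protein that binds AU-rich elements, had 0.27 and 0.28 (limma adjusted p = 0.668), with 1.09 and -0.05 in the authors' deposited table. These were the 2 genes of the 125 at an unadjusted p under 0.05.

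Nonsense-mediated decay, the surveillance of messages with early stop codons, had a median of 0.0418 over 9 genes, with 3 higher and 2 lower on both arrays. Its cofactor genes Upf3b and Upf2 were at means of 0.24 and 0.20 (limma adjusted p = 0.718 and 0.774). The RNA exosome, which degrades RNA from the other end, had a median of -0.0235 over 17 genes, with 2 higher and 6 lower on both arrays. Its core subunit gene Exosc6 was at -0.17 and Hbs1l, a factor of ribosome rescue, at 0.22 (limma adjusted p = 0.809 and 0.769).

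Of 36 other entries of the DEAD-box family of Ddx6 and of eIF4A, 10 were above and 7 below control on both arrays (median 0.0387). None passed the limma test (0 of 36, with 0 at an unadjusted p under 0.05). The gene with the symbols Bat1a and Ddx39b entered under both, here and among the 125, and both entries were among the 10. The largest ratios of the same sign on both arrays were negative, at -0.24 for Ddx41, a helicase of innate immune sensing (limma adjusted p = 0.718), and -0.20 for Ddx49 (limma adjusted p = 0.782). The highest mean was 0.18 for Ddx10, against 2.16 for Ddx6.

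**Figure D5:**
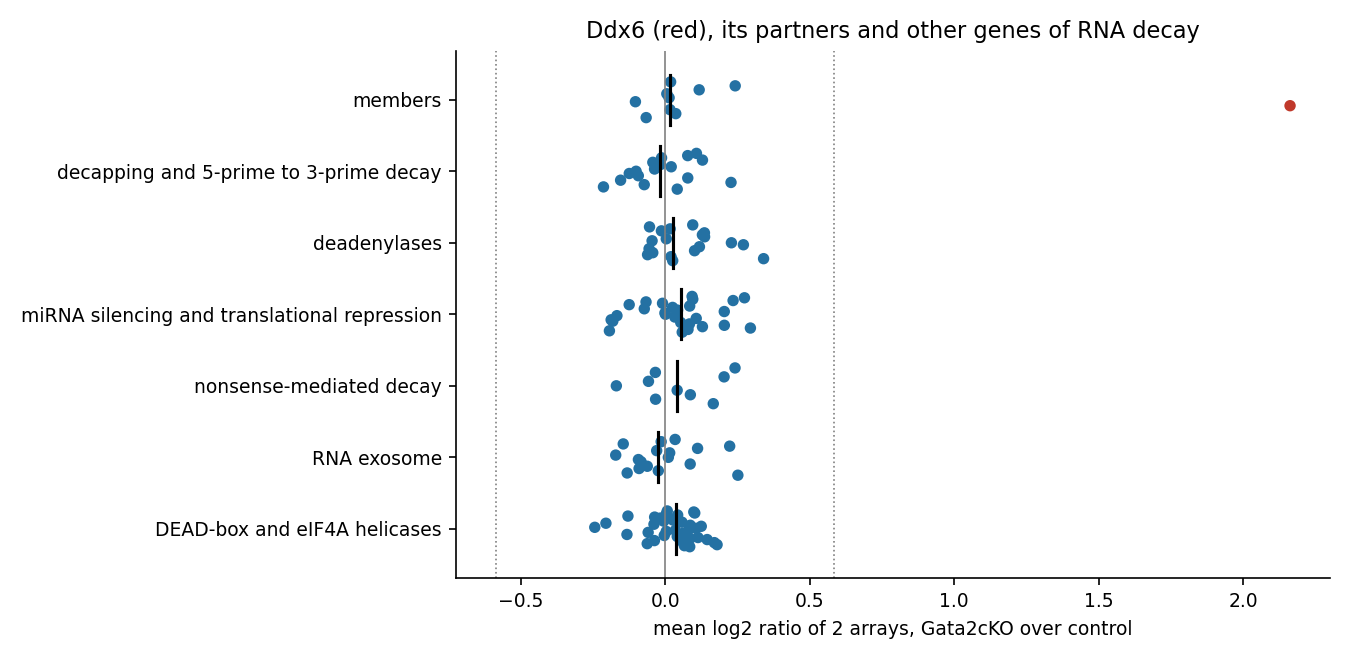
Mean log2 ratio of Gata2cKO over control of each gene tested (points) in the members and in 6 lists of RNA decay and helicase genes, with the median of each row as a black bar and dotted lines at 1.5-fold. Ddx6 (red, 2.16) is the 1 point beyond 1.5-fold, and the other genes lie between -0.24 and 0.34.

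Each array held 44397 spots, of which 43020 were not controls, and 66% to 69.4% of these were well above background in a channel. All 11 member probes were so in all 4 channels, and no spot was saturated (0 on both arrays). Of the cell type markers, only genes of the neuron, glia and chromaffin list passed an adjusted p of 0.05 by limma. Over all genes 26.2% were lower and 27.0% higher on both arrays. Of 14 genes of neurons, glia and chromaffin cells 13 were lower in Gata2cKO on both arrays (median -1.01, and -0.67 in the authors' deposited table). Chgb, a secretory granule gene, and Prph, a neuronal filament gene, passed at -2.06 and -1.35, and the granule gene Chga was at -1.87. Deposited values were -0.02 and -2.46 for Chgb, -0.25 and -1.51 for Chga, and -0.72 and -0.80 for Prph. Of 10 genes of ureteric mesenchyme and smooth muscle 8 were lower on both arrays (median -0.59, 0 passing, with 9 at an unadjusted p under 0.05), with the contractile genes Myh11 and Actg2 at -1.13 each, while the regulators Tbx18 and Tshz3 were higher on both arrays (means 0.40 and 0.52). Of 13 urothelium genes 8 were higher and 0 lower (median 0.21, 0 passing, with 3 at an unadjusted p under 0.05; median -0.07 in the authors' deposited table), with the junction gene Cldn4 at 0.87 and the plaque gene Upk3a at 0.51. The authors' deposited table gave Cldn4 -0.73 and -0.38, the opposite sign, and Upk3a -0.12 and 0.57. In whole ureters fewer cells of a type and less RNA per cell cannot be told apart, and the part of these markers in the ratios of Ddx6 and Lsm14b was not tested.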

How the data were processed

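Per the file headers, the authors scanned the arrays in 2 colours and read them with Agilent Feature Extraction 10.7.3.1, placing probes on mm9. In the deposited scanner files the spot signals (mean and median) and the local background are intensity values, linear and not normalized, beside, per the file headers, a log10 ratio of the software's background-subtracted and dye-normalized signals. The values deposited by the authors are a score, a signed fold change by its entries with 28% and 28.3% of probes at exactly 1, used here as log2 with its sign and as an alternative alone.

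Background was corrected by normexp (offset 50) and ratios were normalized by loess within each array (span 0.3), giving control spots and outliers a weight of 0 (255 spots with an outlier flag on array 1 and 178 on array 2). The sign of array 2 was changed to give Gata2cKO over control. A probe entered the tests if 1 group was well above background in both of its channels (25657 probes), and the brightest probe stood for a gene (20506 genes, named through RefSeq accessions of GRCm38.p6). The two-sided test against 0 used limma 3.58.1 (lmFit, eBayes) under R 4.3.3, and p-values were adjusted by Benjamini-Hochberg over all genes at a threshold of 0.05, which rests on 2 arrays. The functions were tested on simulated data. Tables were handled by data.table (version 1.17.8) and jsonlite 2.0.0, and figures were drawn with pandas 2.3.3 and matplotlib 3.10.9 in Python 3.11.15.

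The members and lists were chosen with earlier results of these data known. Named were all members with every probe, in each other list the genes past the threshold and the 2 with the largest ratio of the same sign on both arrays, and the 5 genes nearest to Ddx6 in their pair of ratios. Taf4, Psma7, Tshz3, Exosc2, Ddx10 and the genes beside Ddx6 that were not so chosen were named after their values were seen. Bat1a and Ddx39b were named only as symbols of the same gene.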

Additional observations from a re-analysis of the deposited data

How the results depend on the processing

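The ratio of Ddx6 lay between 2.14 and 2.22 in the 10 settings that start from the scanner signals and was reversed, at -0.20, in the authors' deposited table. Members at least 1.5-fold on both arrays numbered 1 (Ddx6) in the scanner settings that used both arrays and 0 in the authors' deposited table. On 1 array alone the members at least 1.5-fold there also numbered 1. With limma 0 of 9 partners passed in every setting tested, and 1 (Lsm14b, averaged over its probes) had an unadjusted p under 0.05. The partners' median ranged from -0.0213 to 0.0839 on 1 array alone and from -0.000428 to 0.0294 in the other settings. Pan3 stayed positive (0.20 to 0.28 over 11 settings), and each of the other 8 partners took the other sign in at least 1. Of all genes 18 passed by limma, against 0 with median centring (492 at an unadjusted p under 0.05), 0 in the authors' deposited table (972 so), 3 without background correction, 54 with no filter on dim probes, 165 with signals processed by the scanner software and 376 with a trended and robust variance. The cause was not tested. Median in place of mean pixel signals, chosen after seeing the data, left 15. The number of genes passing could not be had from 1 array. The probes of Ddx6 and of the partners were each printed at 1 spot, so the spread between spots of a probe was not measured for them, and 2 arrays limit the precision.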
